A study of Mus musculus with 14 samples.

Results

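The genes described here are 9 components of the Notch pathway that neural progenitors use, taken by symbol from the deposited tables of the E13.5 and E18.5 mouse fetal brain: the receptors Notch1, Notch2 and Notch3, the ligands Dll1, Dll3 and Jag1, and the target genes Hes1, Hes5 and Hey1. All 9 of 9 symbols were found among 41934 genes, each on 1 row, so no choice between rows was needed. The study sequenced ribosomal RNA-depleted total RNA of whole brains from single male fetuses on a C57BL/6J background, littermates from matings of heterozygous mice. At E13.5 the brains came from 4 Dio3+/+ and 2 Dio3-/- fetuses, and at E18.5 there were 3 wild type and 5 mutant brains. Dio3 encodes the type 3 deiodinase, which clears thyroid hormones, and the Dio3-/- mice carry point mutations that inactivate the enzyme in all tissues while the mRNA is still made. For each gene and age the value used here is the authors' mean normalized count over all libraries of the age, with both genotypes averaged together, so no value of a single library and no difference between Dio3+/+ and Dio3-/- brains is described.

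In Notch signalling a ligand of the Delta or Jagged family on one cell binds a Notch receptor on its neighbour. The receptor is then cut by ADAM metalloproteases and by gamma-secretase, and its intracellular part joins the DNA-binding protein RBPJ and a Mastermind coactivator to switch on genes of the Hes and Hey families. In the developing brain these repressors hold down proneural genes such as Neurog2, which keeps radial glia in a dividing state, while cells that express more ligand leave to become neurons. As neurogenesis gives way to gliogenesis, the ventricular zone that holds these progenitors shrinks relative to the rest of the brain.

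Promoter windows, from 250 bases before to 50 bases after a transcription start, were taken from a table of RefSeq windows (GRCm38.p6), in which 7 of the 9 genes were matched, with 8 windows in all. Windows of Hes1 and Hey1 were not analysed here. The core letters that RBPJ binds, TGGGAA, were searched on both strands, and the longer form GTGGGAA, which contains the core, was searched too. Of the members' windows, 1 held the core, that of Hes5, and it held the longer form 2 times. Among all 32851 windows of this length, 25.56% held the core and 6.383% the longer form. The letters CACNAG, the N box that Hes proteins can bind, were present in windows of Notch1, Notch2 and Notch3 and in 1 window of Dll1, and in 42.48% of all windows. Below are the Hes5 window, chr4:154960673-154960972 on the plus strand, and, as a window without a match, that of Dll3, chr7:28301736-28302035 on the minus strand. Both run 5′ to 3′ and capitals mark the RBPJ core on either strand. In Hes5 the core on the minus strand began 226 bases before the start, and that on the plus strand began 82 bases before it. The matches are letters in a sequence and were not tested for binding.

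Hes5: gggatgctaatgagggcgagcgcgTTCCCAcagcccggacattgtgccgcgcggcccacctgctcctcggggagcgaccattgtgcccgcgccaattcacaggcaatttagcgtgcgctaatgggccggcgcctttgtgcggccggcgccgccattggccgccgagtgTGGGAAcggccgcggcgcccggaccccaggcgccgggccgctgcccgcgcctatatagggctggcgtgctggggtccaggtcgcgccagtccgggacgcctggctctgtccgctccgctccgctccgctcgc

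Dll3: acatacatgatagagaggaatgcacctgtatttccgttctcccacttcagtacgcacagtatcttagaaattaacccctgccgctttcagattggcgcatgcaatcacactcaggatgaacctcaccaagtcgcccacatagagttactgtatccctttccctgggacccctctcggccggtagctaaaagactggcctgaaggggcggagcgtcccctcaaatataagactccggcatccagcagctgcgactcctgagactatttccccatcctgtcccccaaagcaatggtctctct

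All 9 genes had a lower mean normalized count at E18.5 than at E13.5. A lower count was also the more common direction among all genes in these counts. Over the 17794 genes with a mean of at least 10 at both ages, the median log2 ratio of E18.5 to E13.5 was -0.28. By over 1.5-fold, 28.6% of them were lower and 14.5% higher. Notch1, a receptor of radial glia and of blood vessels (chr2:26457903-26516663, minus strand), had a mean normalized count of 8637 at E13.5 and of 2818 at E18.5. Notch2, its close relative (chr3:98013527-98150361, plus strand), had 4537 at E13.5 and 2169 at E18.5. Notch3, which marks both progenitors and the mural cells of vessels (chr17:32120820-32166852, minus strand), had 4028 and 1354. Among the ligands, Dll1, the Delta ligand of committed progenitors (chr17:15367354-15376872, minus strand), had 1978 at E13.5 and 412 at E18.5. Dll3, a divergent Delta protein that does not activate receptors on neighbouring cells (chr7:28293553-28302238, minus strand), had 1199 and 217. Jag1, a Jagged ligand (chr2:137081456-137116644, minus strand), had 2477 and 736. Thus each receptor and each ligand had a lower mean at the later age, in counts that the authors normalized separately for each age. The target genes followed the same direction. Hes1, a repressor of proneural genes (chr16:30064384-30067796, plus strand), had 737 at E13.5 and 281 at E18.5. Hes5, the repressor most closely tied to Notch activity in radial glia (chr4:154960923-154962371, plus strand), had 1087 and 336. Hey1, a related repressor that endothelial cells also use (chr3:8663359-8667256, minus strand), had 952 and 530. These counts grow with the length of a gene and are not compared between genes.

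Per kilobase of exon, and scaled so that all genes of an age sum to 1000000, Hes5 had the highest level of the 9 genes at both ages, 113 at E13.5 and 40.1 at E18.5. At E13.5 Notch1 followed with 86.3, then Notch3 with 70.8, Dll1 with 66.7, Jag1 with 60.4, Notch2 with 59.8 and Dll3 with 59.8, and at the end Hes1 with 51.5 and Hey1 with 41.5. The last of these levels was 2.74 times below the first, so the members lay within a narrow band at this age. All of them lay in the upper part of the genes with a mean of at least 10, from percentile 74.3 for Hey1 to percentile 92.0 for Hes5. At E18.5 the order per kilobase was Hes5, Notch2 with 32.7, Notch1 with 32.2, Notch3 with 27.2, Hey1 with 26.4, Hes1 with 22.4, Jag1 with 20.6, Dll1 with 15.9 and Dll3 with 12.4. The percentiles then ran from 47.6 for Dll3 to 74.4 for Hes5. Since no spread between libraries could be computed, none of the neighbours in either order is shown to differ from the next.

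**Figure D1:**
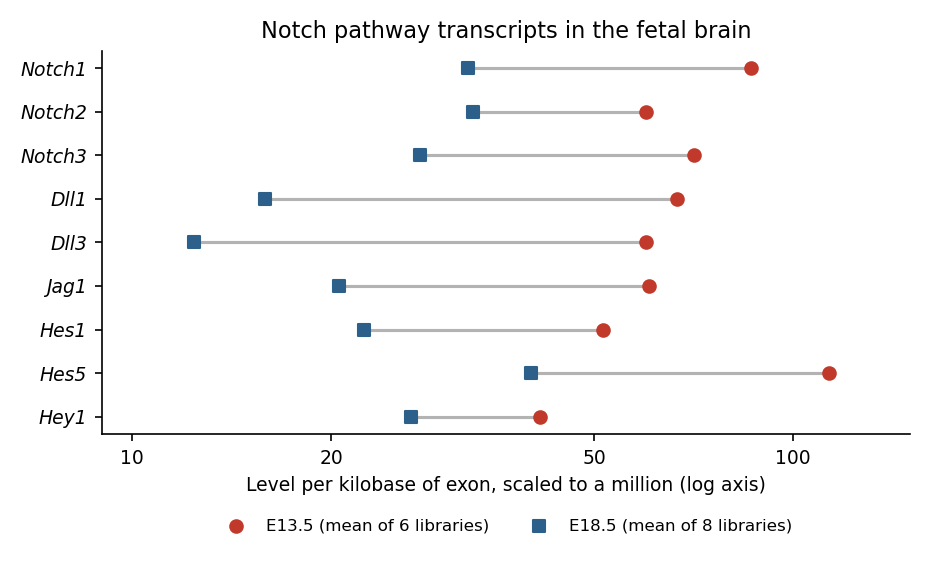
Level of each gene per kilobase of exon, scaled to a sum of 1000000 over all genes of the age, on a log axis; circles are the mean of the 6 libraries of E13.5 and squares that of the 8 libraries of E18.5, both genotypes together and without an error, since no library has a value of its own. Each of the 9 genes sat lower at E18.5, Dll3 moving from 59.8 to 12.4 and Hey1 from 41.5 to 26.4.

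The order depends on the length used. Notch1 has an exon union of 14232 bases against 9488 in its longest transcript. With the latter, Notch1 had the highest level at both ages (103 and 38.9) and Hes5 came next (97.0 and 34.5). The level of Notch1 relative to Notch2 at E18.5 was 0.98 with the exon union and 1.44 with the longest transcript, so which of these receptors was higher at E18.5 depended on the length. At E13.5 Notch1 was higher than Notch2 with either length (1.44 and 2.11). The counting ignored strand, and exons of other genes cover 31.8% of the exon union of Hes5 and 20.5% of that of Dll1. In an alternative chosen after the overlaps had been seen, those bases were left out of the members' lengths. The counts were kept, other genes were not corrected and the levels were not rescaled to 1000000. Hes5 then stood at 166 at E13.5 and 58.7 at E18.5, and Dll1 moved from 66.7 to 83.9 at E13.5. These values are thus not on the scale of the levels above. The gene opposite Dll1, the long noncoding RNA A930024N18Rik, had mean normalized counts of 159 at E13.5 and 159 at E18.5, and the one opposite Hes5, Gm20421, had 6.95 and 2.57. Notch3 shared 6.03% of its exon union with another gene, Notch2 shared 5.02%, and Notch1 shared exons with 2 genes on the other strand. Dll3, Jag1, Hes1 and Hey1 shared none.

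The ages were then set beside each other. Each age was normalized separately by the authors, and over the 17794 genes with a mean of at least 10 at both ages the median log2 ratio of E18.5 to E13.5 was -0.28. This median was subtracted from every ratio, and the ratios below are relative to it. Each rests on 1 pooled mean an age, so there is no replicate error and no test, and a ratio past 1.5-fold, or 0.58 on the log2 scale, is counted as lower or higher by size alone. At E18.5, 8 of the 9 genes were lower by over 1.5-fold and 0 were higher. Among all 17794 genes, 14.0% were lower and 21.4% were higher by that fold, or 28.6% and 14.5% without the subtraction. The 9 genes were chosen with earlier results of these data known, so their count beside these shares is a description only. The median log2 ratio of the 9 genes was -1.33, where the median of all genes is 0 by construction.

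The ligands held the lowest ratios. Dll3 had a log2 ratio of -2.18, a 4.53-fold lower level, and lay at percentile 0.57 of all genes. Dll1 had -1.98, or 3.94-fold lower, at percentile 0.90. Jag1 had -1.47, or 2.76-fold lower. Both Delta genes were thus lower by more than Jag1. Within the receptors, Notch1 and Notch3 lay close together with log2 ratios of -1.33 and -1.29, which are 2.52-fold and 2.44-fold lower levels. Notch2 had -0.78, a 1.72-fold lower level. As a result the level of Notch2 relative to Notch3, per kilobase, was 0.85 at E13.5 and 1.20 at E18.5. The target genes differed most among themselves. Hes5 had a log2 ratio of -1.41 and was 2.66-fold lower, Hes1 had -1.11 and was 2.16-fold lower, and Hey1 had -0.56 and was 1.47-fold lower. Hey1 lay just inside the 1.5-fold limit, at percentile 14.9, and Notch2 was the nearest gene beyond it, at percentile 8.73. Hes5 exceeded Hey1 2.74-fold at E13.5 and 1.52-fold at E18.5 on the scale per kilobase. Summed per kilobase and on that scale, the 3 ligands had 3.83 times the E18.5 level at E13.5, the 3 receptors 2.35 times and the 3 target genes 2.32 times.

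**Figure D2:**
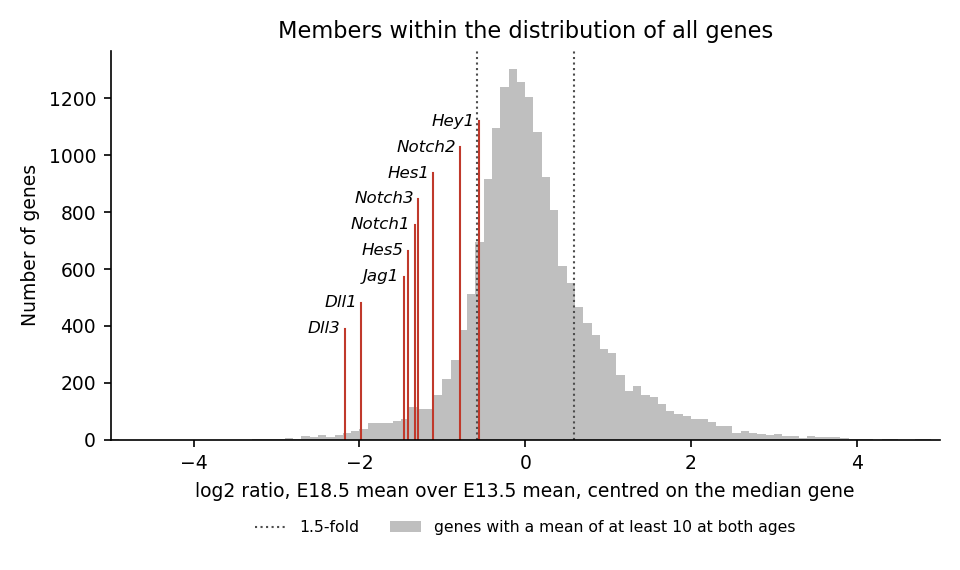
Number of genes, in bins of log2 ratio, by the ratio of their E18.5 mean to their E13.5 mean after subtraction of the median, for the 17794 genes with a mean of at least 10 at both ages; red lines mark the 9 genes and their heights only separate the names. All 9 lie left of 0 and 8 lie beyond the dotted 1.5-fold line, with Dll3 at -2.18 and Hey1 at -0.56.

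The means of the ages also differ in genotype, with 2 of 6 libraries from Dio3-/- fetuses at E13.5 and 5 of 8 at E18.5, so that age and genotype makeup cannot be told apart in them. Dio3 itself had mean normalized counts of 99.0 at E13.5 and 129 at E18.5, which average both genotypes and therefore do not check the labels. By qPCR in wild type brains alone, the paper reported a decrease of Dio3 between these ages. The pooled means of Dio3 are therefore not a wild type time course. The libraries were also sequenced in 2 batches at different centres, and the labels do not say which library belonged to which, so the part of the batch in these ratios was not tested. In whole brains, fewer cells of a type and less RNA per cell cannot be told apart.

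Further ligands and receptors, taken from a list of 7, did not share the direction of the members, with 2 lower and 3 higher by over 1.5-fold and a median log2 ratio of 0.46. Notch4, a receptor of endothelium, had mean normalized counts of 595 and 321 and a log2 ratio of -0.61. Dlk1, an imprinted protein without the domain that Delta ligands use to activate Notch, had 859 and 131 and a log2 ratio of -2.43. Jag2, the other Jagged ligand, was within the limit at 0.46, with a level per kilobase of 28.4 at E13.5 and 36.7 at E18.5. Its level was thus below that of Jag1 at E13.5 and above it at E18.5. Cntn1 and Dner, neuronal surface proteins described as unusual Notch ligands, had log2 ratios of 3.04 and 0.75, and Dner had the highest level per kilobase of the list at both ages (198 and 314).

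Of 10 genes that mark ligands for uptake or add sugars to receptors, 3 were lower and 2 were higher. Mfng, the Manic fringe glycosyltransferase, had mean normalized counts of 1040 at E13.5 and 169 at E18.5 and a log2 ratio of -2.34, lower than that of any of the 9 members. Mib1, the ubiquitin ligase that ligands need to signal, had -0.73 and kept a high level per kilobase of 146 and 82.5. Neurl1b and Neurl1a, ubiquitin ligases of the Neuralized family, were higher, with 2.01 and 1.63. Of the 9 genes for receptor cleavage, 7 were within the limit, among them Adam10 with -0.11 and Ncstn, a gamma-secretase subunit, with -0.42. Psenen, another subunit of that enzyme, was lower with -1.08, and Psen2 was higher with 0.75. The median of this list was -0.18.

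In the nucleus, 5 of 12 effectors and cofactors with a mean of at least 10 at both ages were lower and 0 were higher, with a median log2 ratio of -0.47. Rbpj itself had mean normalized counts of 2944 at E13.5 and 1163 at E18.5 and a log2 ratio of -1.06. Hdac1, a histone deacetylase of corepressor complexes, had -1.15, while Cir1, a corepressor, stood at 0.02. Among 11 regulators and inhibitors 3 were lower and 2 were higher, with a median of -0.06 that was 0.01 when centred on the upper quartile. Nrarp, a target gene of Notch that limits its own pathway, had -1.15, and Numb, which antagonizes Notch in dividing cells, had -0.63. Dtx1, a Deltex protein, was higher with 0.90. Of 14 further Hes, Hey, Tle and Id genes and relatives, 6 were lower and 3 were higher. Hes6, which counteracts Hes1, had a log2 ratio of -1.38 and a level per kilobase of 142 at E13.5. Id2 and Bhlhe40 were higher, with 1.42 and 1.68, and Id4 was within the limit at -0.21.

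The proneural genes, several of which Hes proteins repress, did not share 1 direction. Neurog2, a factor of progenitors that commit to neurons, had mean normalized counts of 2400 at E13.5 and 315 at E18.5 and a log2 ratio of -2.64. Neurod6 and Neurod2, factors of neurons that have left the cycle, were higher with 2.15 and 1.43. Over the 9 proneural genes with a ratio, 5 were lower and 2 higher.

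The 20 progenitor genes did not move as one group. By over 1.5-fold 12 were lower and 5 were higher, and the median was -0.91, nearer to 0 than the -1.33 of the Notch genes. Hmga2, a chromatin protein of early progenitors, had the lowest ratio with -4.29, Sox3, a factor of neural stem cells, had -2.27 and Vim, an intermediate filament of radial glia, had -1.54. Fabp7, Ptprz1 and Tnc, which radial glia and young astrocytes express, were higher with 0.63, 1.45 and 2.02. Of 18 genes of cycling cells 17 were lower, with a median of -1.72. Their ratios ran from -2.04 for Mcm2, a replication helicase subunit, to -0.48 for Ccne2, and Mki67 and Top2a had -1.52 and -1.96. The ratios of the Notch genes ran from -2.18 to -0.56. With only 2 pooled values a gene, likeness of pattern to any list was not computed. The lists were not tested against each other.

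**Figure D3:**
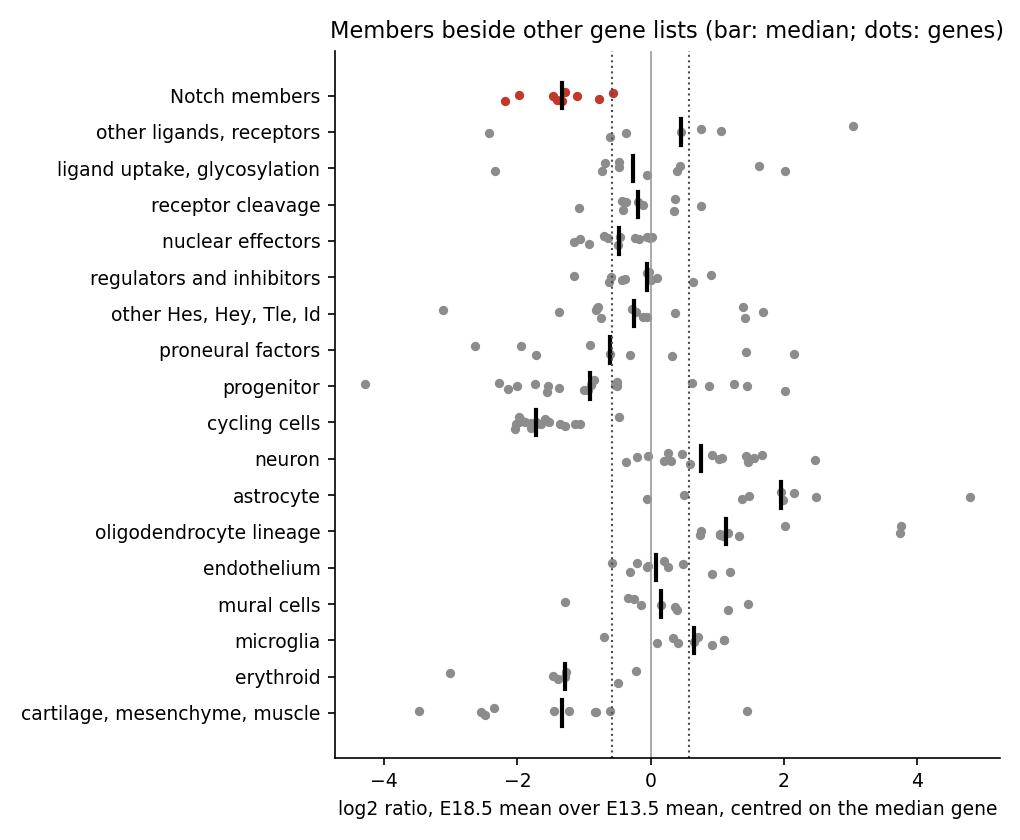
Ratio of the E18.5 mean to the E13.5 mean on the log2 scale, after subtraction of the median of all genes, for the 9 genes (red) and 17 other lists (grey), each dot a gene with a mean of at least 10 at both ages, each bar a list's median and the dotted lines 1.5-fold. The 9 genes center on -1.33, the cycling genes on -1.72, cartilage, mesenchyme and muscle on -1.33 and red cells on -1.29. Neurons, astrocytes and the oligodendrocyte lineage center above 0.

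Markers of other cell types moved in both directions between the ages. The libraries held brain RNA at both ages, with 16 of 16 neuron markers at a mean of at least 10 and levels per kilobase up to 2826 at E13.5 and 2585 at E18.5. Neuron markers had a median log2 ratio of 0.76 with 9 of 16 higher, astrocyte markers 1.96 with 7 of 9 higher and the oligodendrocyte lineage 1.13 with 10 of 10 higher, all with 0 lower. Markers of microglia had a median of 0.65, with 5 of 9 higher and 1 lower.

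Since Notch1, Notch3, Jag1 and Hey1 are also made by vessels, the vascular lists were set beside them. Of 10 endothelial markers 2 were higher and 0 lower, with a median of 0.08, which was -0.20 with the ratios as deposited and -0.01 per kilobase. Their summed level per kilobase was 305 at E13.5 and 357 at E18.5. The mural list, which contains Notch3, had a median of 0.16, or -0.13 as deposited, and a summed level of 320 and 347. Notch3 itself made up 70.8 and 27.2 of that sum. Of the 9 mural genes with a ratio, 1 was lower, Notch3, and 2 were higher, Rgs5 and Cspg4. Pdgfrb had the next lowest ratio of the mural list after Notch3, with -0.34. Cspg4 is also in the list of the oligodendrocyte lineage. The lists of cartilage, mesenchyme and muscle and of red cells had medians below 0, as the Notch genes did, at -1.33 and -1.29. Whether this RNA came from inside or outside the brain was not tested. Cartilage, mesenchyme and muscle markers had a summed level of 484 at E13.5 and 219 at E18.5, with 9 of the 10 that had a ratio lower, and Twist1 and Col2a1 had -2.55 and -3.47. Erythroid markers had a summed level of 7256 and 786, and most of that difference lay in embryonic globins with too low a mean at E18.5 for a ratio. Of these, Hbb-y had 4825 per kilobase at E13.5 and 2.04 at E18.5, and Hba-x had 760 and 0.87. Of the 7 erythroid markers with a ratio 5 were lower, and Hbb-bs, an adult globin, had -0.21. None of the listed markers was at 0 at either age, and their part in the ratios of the Notch genes was not tested.

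**Figure D4:**
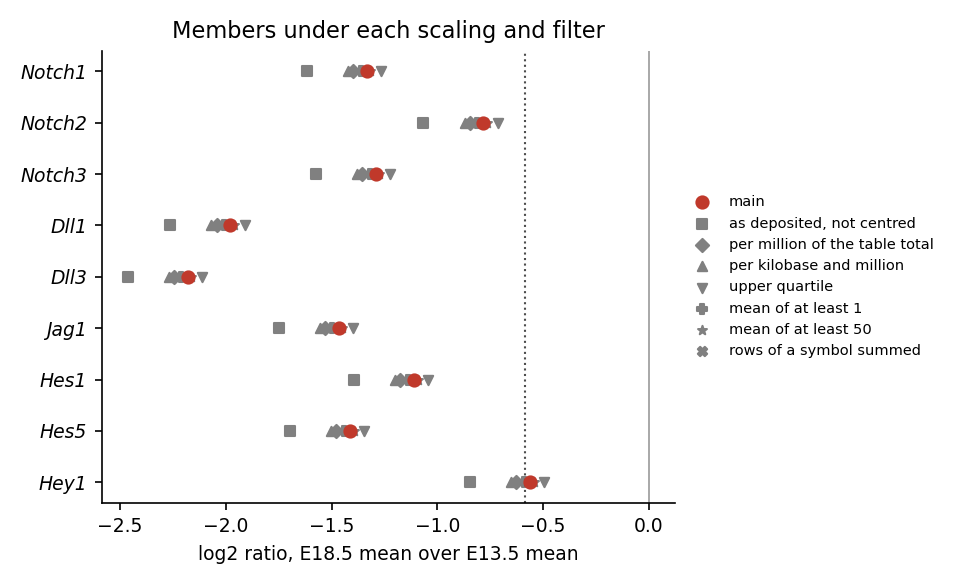
Ratio of the E18.5 mean to the E13.5 mean on the log2 scale for each of the 9 genes, as reported (red) and under each other scaling or filter (grey), with the 1.5-fold limit dotted. All values lie between -2.46 and -0.49, so that each gene stayed below 0 in every setting, and Hey1 crossed the limit in some of them.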

How the data were processed

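The authors trimmed reads with cutadapt 3.1, aligned them to GRCm38 with STAR 2.5.3a on the GENCODE VM22 annotation, counted them per gene with HTSeq (union mode, no strand), used ComBat-seq to even out 2 sequencing batches and, within each age, ran DESeq2 1.30.1. Of the 2 deposited tables, the authors' mean normalized count was used, a signal averaged over the 6 libraries of E13.5 or the 8 of E18.5 after division by size factors. The other numeric columns hold the authors' own comparison of the genotypes (a log2 fold change, its standard error, a statistic and p-values) and were not used. The number of unused columns of per-sample values was 0, and how deeply any single library was sequenced is unknown. Overlapping genes can lose reads in union mode.

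Exon lengths and positions came from GENCODE VM21 (GRCm38), matched by identifier for 41897 genes, of which 41632 had the same version, and missing for 37. Ratios were computed with Python 3.11.15 and pandas 2.3.3 over genes with a mean of at least 10 at both ages, and the calculation was tested on simulated data. Few genes were changed in that simulation, so the arithmetic was checked, but not whether centring on the median holds between the ages. Genes named besides the 9 members are, per list, the 2 with the highest level per kilobase at E13.5 and the 2 with the lowest and highest ratio, and not all of them are named. Outside this rule are Dio3, the genes opposite Dll1 and Hes5, the embryonic globins Hbb-y and Hba-x, and the genes under Other observations. Lists of other cell types are mostly given by counts. The members and lists were chosen with earlier results of these data known. Other scalings, filters, folds and lengths were tried.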

Additional observations from a re-analysis of the deposited data

How the results depend on the processing

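Between 7 and 9 of the 9 genes were lower at E18.5 by the fold used, over the alternatives in scaling, filter and fold, and 0 were higher in each of them. Summing the rows of a symbol could not change a value, since each of the 9 symbols has 1 row. The share of all genes that was lower ranged from 5.61% with a 2-fold limit to 28.6% with the ratios as deposited. Hey1 was beyond the 1.5-fold limit as deposited (-0.84), as a share of the table total, per kilobase, and with a mean of at least 1. Notch2 and Hey1 were the members inside a 2-fold limit. Over all alternatives the log2 ratios of the 9 genes ran from -2.46 to -0.49, all below 0. Medians of 3 lists changed sign: endothelium from 0.08 to -0.20 as deposited and -0.01 per kilobase, mural cells from 0.16 to -0.13 as deposited, and regulators and inhibitors from -0.06 to 0.01 when centred on the upper quartile. With a minimum mean of 1 or 50, 10 percentiles of levels at E18.5 moved by 10 points or more, that of Dll3 from 47.6 to 61.5 and to 31.1. Leaving out single replicates was not possible, since the tables used here give 1 mean an age. No paired analysis was possible because the result comes from no test and the columns carry no library. Depth and the spread between fetuses limit every ratio by an amount that is unknown here.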

Other observations

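Some relatives of the pathway's genes had a mean under 10 at one age or at both and were given no ratio, and they are named here after their values had been seen. Hes3, a repressor of early neuroepithelium, had a mean normalized count of 16.7 at E13.5 and of 3.86 at E18.5, and Hes2 had 17.5 and 0.26. Hes7, known for the segmentation clock of the trunk, had 5.63 and 21.6. Neurog1, a proneural gene, had 413 at E13.5 and 7.89 at E18.5. Rbpjl, a relative of Rbpj that is typical of the pancreas, had 1.57 and 2.81.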
